A study of Mus musculus with 6 samples.

Results

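The genes described here are 10 antiviral genes of the interferon response: Ifit1, Ifit2, Ifit3 and Ifit3b, Ifitm1, Ifitm2 and Ifitm3, and Ifi35, Ifi44 and Ifi44l. They were taken by gene symbol, with earlier results of these data known, and all 10 were found among 26595 genes. Polyadenylated RNA was sequenced from HT22, a mouse cell line of hippocampal neuronal origin, labelled wild type throughout. In 3 libraries the cells had been exposed to interleukin 17 (IL-17), a cytokine, and 3 libraries came from cells with no treatment. Neither dose nor length of exposure is given in the sources used here. Nothing says that the libraries came from separate cultures, so p-values measure no more than the differences among libraries of a group, possibly technical ones.

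Type I interferons bind a receptor whose kinases, JAK1 and TYK2, set off the assembly of ISGF3. This complex, which contains STAT2 and IRF9, binds interferon-stimulated response elements in promoters. IFIT proteins bind viral RNA: mouse Ifit1 recognises RNA caps that lack a host methylation, and human IFIT3 stabilises IFIT1. IFITM proteins sit in membranes and hinder the fusion of viral envelopes, IFITM3 mainly in endosomes. IFI35 forms a complex with NMI, and IFI44 and IFI44L are related proteins induced by interferon.

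Promoter windows were searched for the core of the response element, GAAANNGAAA, on both strands, because it is the sequence through which ISGF3 acts. Windows ran from 250 bases before to 50 bases after each RefSeq gene start (GRCm38.p6). The core occurred in a window of 5 of the 10 genes, Ifit1, Ifit3, Ifit3b, Ifitm2 and Ifitm3. It occurred in 1079 of 27025 genes with a window, or 3.99%. Matches may overlap and are not tested sites. The stretches before the start site with a match are given 5′ to 3′ on the gene's strand, with matches in capitals (reverse complement TTTCNNTTTC included).
Ifit1, chr19:34640770-34640828, plus strand: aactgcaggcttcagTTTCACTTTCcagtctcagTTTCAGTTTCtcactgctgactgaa
Ifit3, chr19:34583358-34583431, plus strand: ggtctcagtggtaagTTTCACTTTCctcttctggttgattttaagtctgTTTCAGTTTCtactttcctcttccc
Ifit3b, chr19:34607754-34607827, plus strand: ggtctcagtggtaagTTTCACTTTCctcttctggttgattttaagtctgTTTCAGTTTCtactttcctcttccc
Ifitm2, chr7:140955983-140956022, minus strand: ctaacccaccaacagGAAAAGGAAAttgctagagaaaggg

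Ifit1, Ifit3 and Ifit3b each held 2 matches of the same letters, TTTCACTTTC and TTTCAGTTTC. The stretches of Ifit3 and Ifit3b are identical over all 74 bases, part of a run of 169 identical bases in their windows. In Ifitm3 both matches, GAAAAGGAAA and GAAACCGAAA, lay after the annotated start, from base 3 and base 20. No match was found in the windows of Ifit2, Ifitm1, Ifi35, Ifi44 and Ifi44l, which says only that these letters are not in these windows.

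All libraries held neuronal transcripts at low levels and some transcripts of other tissues. Of 8 neuronal markers 5 were analysed, and only Tubb3, a neuronal tubulin, reached a mean of 1 FPKM (fragments scaled by transcript length and by the mapped fragments of the library). Rbfox3, which marks mature neurons, was listed at 0 in 5 of 6 libraries. The neuronal markers summed to between 11.6 and 12.6 FPKM with IL-17 and between 14.0 and 15.3 in controls, without overlap. Most of each sum was Tubb3, which was not called (log2 fold change -0.25, limma adjusted p = 0.0928). The part of this list in the results was not tested. The summed FPKM of 6 lung epithelial markers was 68.6, 57.7 and 161 in IL-17 libraries 1 to 3 and 0.620, 0.591 and 51.5 in control libraries 1 to 3. For 7 liver markers the sums were 98.7, 12.4 and 20.1 against 91.0, 76.7 and 48.8 FPKM. Control library 3 thus stood apart from its group in the lung list and IL-17 library 1 in the liver list. Even so, the lung sums did not overlap between the groups, while the liver sums did. The 9 leukocyte and macrophage markers summed to between 271 and 309 FPKM with IL-17 and between 260 and 279 in controls, most of it Cd68, a lysosomal protein; Ptprc, the common leukocyte marker, stood at 0.701, 0.694 and 0.867 FPKM in control libraries and 1.03, 1.02 and 1.08 in IL-17 libraries, and Csf1r, a macrophage receptor, at 20.5, 22.6 and 21.6 against 19.7, 19.6 and 18.9 FPKM. Neither overlapped between the groups, Ptprc higher and Csf1r lower with IL-17, and neither was called; their part in the results was not tested. Sums of 3 red blood cell markers ran from 12.3 to 30.8 with IL-17 and from 12.9 to 16.7 in controls. No listed marker that was analysed was at 0 in all libraries.

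The levels of the 10 genes spanned a wide range. Ifitm3 averaged 3980 FPKM over the 6 libraries, ranked 6 among all genes, and took 0.922% to 1.24% of all FPKM in a library. Ifitm2 followed at 783, Ifi35 at 116, Ifit3 at 49.5, Ifit1 at 32.0, Ifit3b at 16.6, Ifi44 at 10.4, Ifit2 at 7.67, Ifi44l at 2.55 and Ifitm1 at 1.55 FPKM. Since FPKM is scaled by transcript length, these levels can be compared between genes. The comparison is less sure for Ifitm2, Ifit3 and Ifit3b, whose reads can also fit another gene model. Within each group, neighbours in this order did not overlap between libraries, except Ifi44l and Ifitm1, which overlapped with IL-17.

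**Figure D1:**
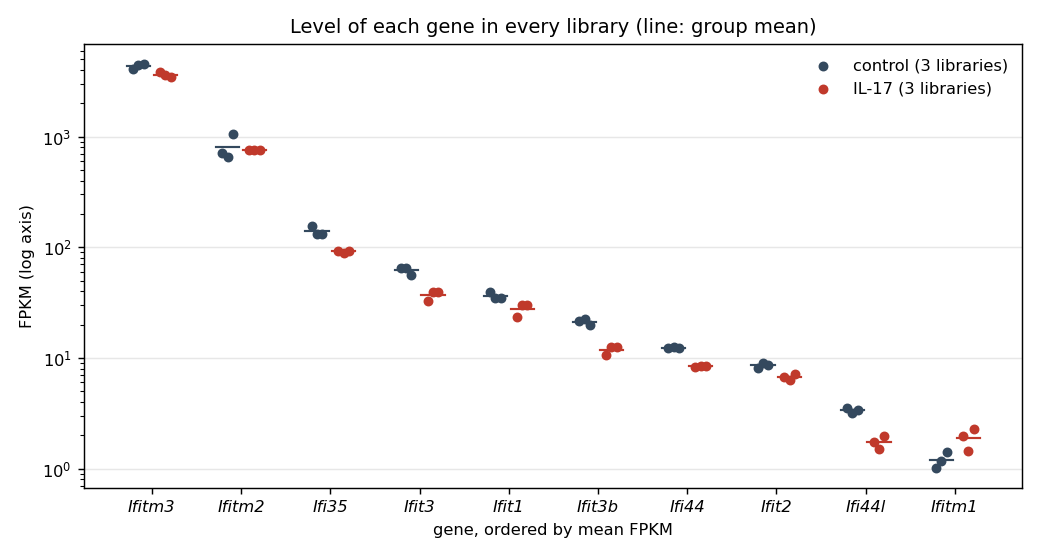
FPKM (log axis) of each gene in the 3 control and 3 IL-17 libraries, with 1 point per library and a line at the group mean, ordered by mean level. IL-17 points lie below the control points for 8 genes, above them for Ifitm1, and between them for Ifitm2, where control library 3 is at 1057 FPKM.

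With IL-17, 5 of the 10 genes fell and none rose: Ifit3b, Ifit3, Ifi44l, Ifi35 and Ifi44. A call is a limma p under 0.05 after Benjamini-Hochberg adjustment over the 12953 genes tested, of which 0.996% fell and 0.950% rose. All 10 genes passed the filter on low values, and 9 had negative log2 fold changes, against 44.9% of all genes tested. Their median log2 fold change was -0.44, against 0.02 for all genes tested, both on the scale of log2(FPKM + 1). Groups did not overlap for 9 of the 10, 8 of them lower with IL-17, where 24.2% of all genes did not overlap and 10.9% were lower without overlap. In bulk RNA, fewer expressing cells and less RNA per cell cannot be told apart. Each of the 5 calls held with any single library left out. With IL-17 library 1 and control library 3 both left out, 4 of the 10 were called lower. The libraries kept in that run differed by group in both marker lists. Control libraries 1 and 2 had lung sums of 0.620 and 0.591 FPKM, and IL-17 libraries 2 and 3 had 57.7 and 161. Their liver sums were 91.0 and 76.7 against 12.4 and 20.1 FPKM. The run thus does not remove the marker difference, whose part in the calls was not tested.

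**Figure D2:**
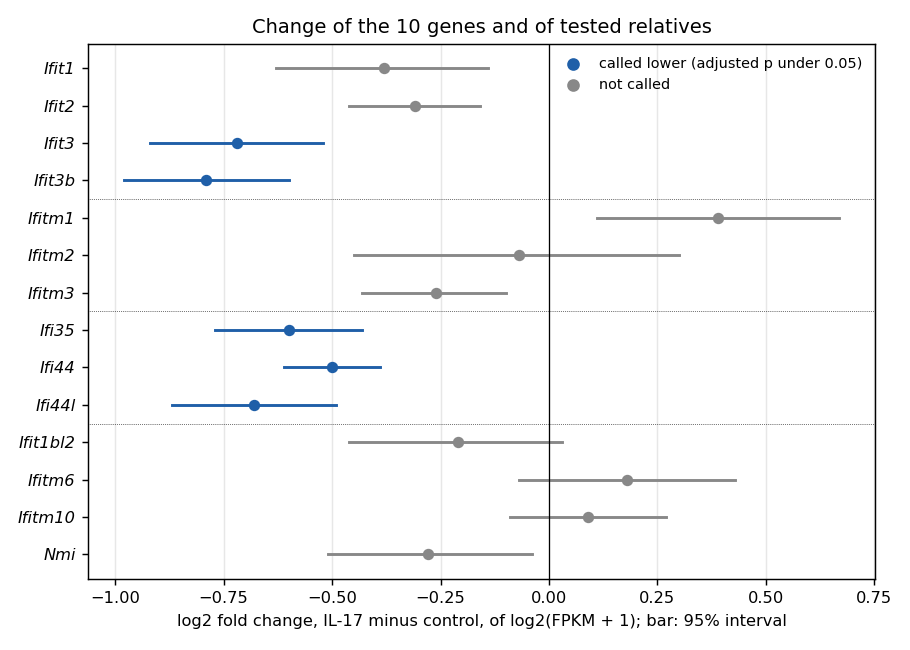
Log2 fold change (IL-17 minus control, of log2(FPKM + 1)) with its 95% interval for the 10 genes and for 4 tested relatives, below the lowest dotted line. Blue marks the 5 genes called lower; Ifitm1 is the sole one of the 10 with a positive value, 0.39, and it was not called.

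The Ifit genes lie together on chromosome 19 (GRCm38), and 2 of the 4 fell. Ifit3 (chromosome 19, 34583531 to 34588731, plus strand) stood at 64.5, 64.4 and 56.6 FPKM in control libraries 1 to 3 and at 33.0, 39.3 and 39.5 FPKM in IL-17 libraries 1 to 3. The groups were well apart, and the lowest IL-17 value was that of library 1. The mean fell from 61.9 ± 4.51 to 37.2 ± 3.68 FPKM (SD, n = 3 each), 39.8% lower, and the log2 fold change was -0.72 (95% interval -0.92 to -0.52, SE 0.09, limma adjusted p = 0.00754). Ifit3b (34607970 to 34613401, plus strand), a close copy of Ifit3, stood at 21.5, 22.5 and 19.8 FPKM in controls and 10.6, 12.6 and 12.5 with IL-17. Control library 3 and IL-17 library 1 were again the lowest of their groups. Its mean fell from 21.3 ± 1.36 to 11.9 ± 1.12 FPKM, 44.0% lower, and its log2 fold change of -0.79 (SE 0.08, limma adjusted p = 0.00353) was the largest of the 10 in size on the log2(FPKM + 1) scale. With a pseudocount of 0.1 that of Ifi44l was larger (-0.93 against -0.83), as it was after rescaling to TPM (-0.84 against -0.82). With array weights that of Ifi44l was larger too (-0.74 against -0.71).

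Reads of these 2 genes can be confused. Of the 150-base stretches of Ifit3 transcripts, 18.5% also occur without a mismatch in Ifit3b, and 16.0% of those of Ifit3b occur in Ifit3, so a read of that length from there fits both. As 1 unit, their summed FPKM went from 86.1, 86.9 and 76.4 in controls to 43.6, 51.9 and 51.9 with IL-17, 40.9% lower in the mean (log2 fold change -0.75, SE 0.08, limma adjusted p = 0.006). The sum was thus called lower too, although it still depends in part on how shared reads were divided, since FPKM is scaled by transcript length. With no filter on low values the adjusted p of Ifit3 was 0.0518, and over its alternatives it ran from 0.00345 to 0.0537.

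Ifit1 and Ifit2 were lower in every IL-17 library than in any control, but neither was called. Ifit1 (34640871 to 34650009, plus strand), the cap-binding member, stood at 39.1, 34.5 and 35.0 FPKM in controls and 23.3, 29.9 and 30.0 FPKM with IL-17. Its log2 fold change was -0.38 (SE 0.10, 95% interval -0.63 to -0.14, limma adjusted p = 0.133), and IL-17 library 1 was the one furthest from the controls. Ifit2 (34550694 to 34576419, plus strand), an RNA-binding partner of the other IFIT proteins, stood at 8.18, 8.94 and 8.68 FPKM in controls and 6.77, 6.26 and 7.20 FPKM with IL-17. Its log2 fold change was -0.31 (SE 0.07, 95% interval -0.46 to -0.16, limma adjusted p = 0.0688). It was called under TMM scaling (0.0461) and with array weights (0.0111), and not under the other alternatives, over which the adjusted p reached 0.282.

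Whether members of a family moved by different amounts was asked of the log2 ratio of each pair within a library, over 10 pairs. An exact two-sided permutation test of 3 against 3 libraries cannot go below p = 0.1, so no pair could pass. The ratio of Ifit1 to Ifit3 was -0.71, -0.88 and -0.68 in controls and -0.49, -0.38 and -0.38 with IL-17, a shift of 0.34 with no overlap (p = 0.1 by the exact permutation test, adjusted p = 0.167). Ifit2 to Ifit3 shifted by 0.41, Ifit1 to Ifit3b by 0.41 and Ifit2 to Ifit3b by 0.48, each without overlap and with the same exact p. The IL-17 libraries thus held more Ifit1 and Ifit2 relative to Ifit3 and Ifit3b than the controls did. Between Ifit1 and Ifit2 the shift was -0.07, with overlapping groups (exact permutation p = 0.8). For Ifit3 to Ifit3b it was 0.07, small but without overlap (exact permutation p = 0.1).

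The 3 genes outside the IFIT and IFITM families all fell. Ifi35 (chromosome 11, 101448407 to 101458698, plus strand) stood at 156, 131 and 133 FPKM in controls and 93.3, 89.7 and 92.7 FPKM with IL-17. Control library 1 was the highest, and the IL-17 libraries lay close together. Its mean fell from 140 ± 14.1 to 91.9 ± 1.97 FPKM, 34.4% lower, a log2 fold change of -0.60 (SE 0.07, limma adjusted p = 0.00829). With no filter on low values the adjusted p was 0.0514, and over its alternatives it ran from 0.00136 to that value. An antisense model, Gm11626, overlaps Ifi35 over 290 exonic bases and was at 0.163 FPKM or less in every library.

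Ifi44 and Ifi44l are neighbours on the minus strand of chromosome 3. Ifi44 (151730922 to 151749960) stood at 12.2, 12.6 and 12.2 FPKM in controls and 8.31, 8.42 and 8.48 FPKM with IL-17. Both groups were tight, and the mean fell by 31.7% and the log2 fold change was -0.50 (95% interval -0.61 to -0.39, SE 0.05, limma adjusted p = 0.00292), the smallest adjusted p of the 10. Ifi44l (151758737 to 151762892) stood at 3.54, 3.19 and 3.39 FPKM in controls and 1.73, 1.50 and 1.97 FPKM with IL-17, 48.6% lower in the mean. That is the largest fall of FPKM in percent among the 10, though its log2 fold change of -0.68 (SE 0.08, limma adjusted p = 0.00712) is held down by the pseudocount of 1. If the commonest low value marks 1 fragment, these levels rest on about 72.8 to 83.6 fragments per control library and 33.2 to 42.6 per IL-17 library. The Ifi44l call was lost when IL-17 library 1 and control library 3 were left out together, with the log2 fold change still -0.68 (limma adjusted p = 0.0679, the highest over its alternatives, which began at 0.00163). With the pseudocount of 1, the ratio of Ifi44 to Ifi44l overlapped between the groups (shift 0.18, exact permutation p = 0.2). With a pseudocount of 0.1 it shifted by 0.38 without overlap (exact permutation test, adjusted p = 0.125), so the overlap depended on the pseudocount.

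None of the IFITM genes was called, and their values did not move one way. Ifitm3 (chromosome 7, 141009586 to 141010770, minus strand), the endosomal restriction factor, stood at 4081, 4432 and 4520 FPKM in controls and 3850, 3575 and 3425 FPKM with IL-17. The groups did not overlap, and the mean was 16.7% lower with IL-17 (log2 fold change -0.26, SE 0.07, 95% interval -0.43 to -0.10, limma adjusted p = 0.125). It was called with array weights alone (0.0181), where the adjusted p over all its alternatives reached 0.488.

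Ifitm1 (140967221 to 140969825, plus strand), an IFITM protein found mainly at the cell surface, had the lowest mean of the 10. It stood at 1.02, 1.18 and 1.41 FPKM in controls and 1.99, 1.44 and 2.26 FPKM with IL-17, so that IL-17 library 2 barely exceeded control library 3. Its log2 fold change was 0.39 (SE 0.12, 95% interval 0.11 to 0.67, limma adjusted p = 0.172). These levels amount to about 9.77 to 21.7 fragments per control library and 13.0 to 31.3 per IL-17 library, by the estimate used for Ifi44l. The lung marker sums given above put the 6 libraries in nearly the same order, with IL-17 libraries 3, 1 and 2 highest and control library 3 next. Sums of 3 endothelial markers were 0.765, 0.732 and 1.58 FPKM with IL-17 and 0.258, 0.195 and 0.847 FPKM in controls. The part of either list in the Ifitm1 difference was not tested. The ratio of Ifitm1 to Ifitm3 shifted by 0.65 without overlap (exact permutation p = 0.1, adjusted p = 0.167).

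Ifitm2 (140954837 to 140955987, minus strand) overlaps another gene model. Ifitm2 stood at 717, 660 and 1057 FPKM in control libraries 1 to 3 and 757, 755 and 755 FPKM with IL-17. Control library 3 lay far above all others, and the groups overlapped (log2 fold change -0.07, SE 0.16, 95% interval -0.45 to 0.30, limma adjusted p = 0.863). Gm45717, a protein-coding model on the same strand (140949222 to 140955937), joins exons of Ifitm5 and Ifitm2. It shares 268 exonic bases with Ifitm2, 40.9% of that gene's exonic sequence, and 227 with Ifitm5. Gm45717 had 450, 446 and 0.238 FPKM in controls, against 519, 489 and 540 with IL-17. Control library 3, the one with the high Ifitm2 value, was thus the one with almost no Gm45717. Whether the division of reads between these models gave both values was not tested.

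Summed over both models, control library 3 no longer lay above the others. The sums were 1167, 1106 and 1057 FPKM in controls and 1276, 1244 and 1295 FPKM with IL-17, and the lowest IL-17 sum exceeded the highest control sum. The sum was 14.6% higher with IL-17, a log2 fold change of 0.20 (SE 0.06, limma adjusted p = 0.139), and was not called. It also depends on how shared reads were divided, since FPKM is scaled by transcript length. Gm45717, at 495 bases, is shorter than Ifitm2, at 655. A read given to Gm45717 thus adds more FPKM, and control library 3 had almost none. Ifitm2 alone also turned positive without control library 3 (0.14, limma adjusted p = 0.44) and with that library and IL-17 library 1 left out (0.13, 0.528), with adjusted p between 0.139 and 0.911 over its alternatives. Ifitm5, a gene of bone-forming cells that lies at the other end of Gm45717, was at 0.247 to 0.747 FPKM and under the filter.

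**Figure D3:**
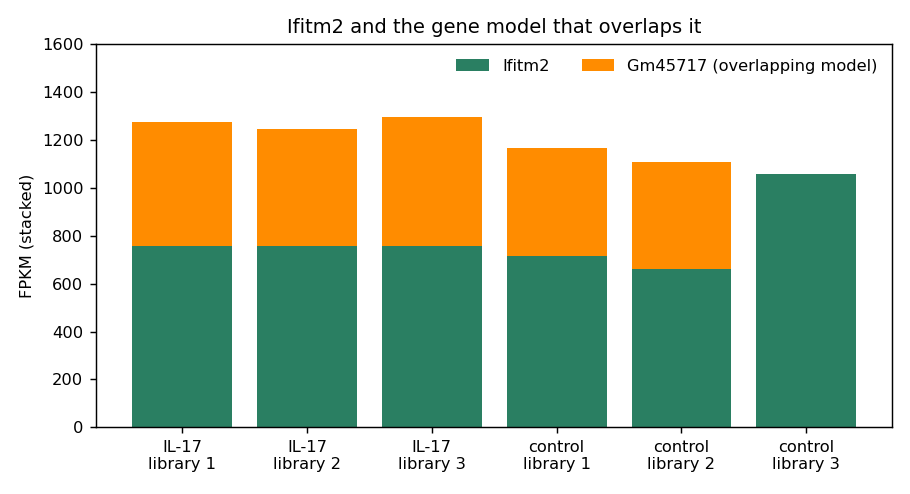
FPKM of Ifitm2 (green) and of the overlapping model Gm45717 (orange), stacked, in each of the 6 libraries. Control library 3 has 1057 FPKM of Ifitm2 and 0.238 of Gm45717, while the other 5 libraries have 446 to 540 FPKM of Gm45717; the sums run from 1057 to 1295.

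Along chromosome 19 the Ifit genes spread over 90177 bases between the starts of Ifit2 and Ifit1, with Ifit3 and Ifit3b between them, 24439 bases apart. The genes called lower were the inner pair of the 4 on the plus strand, whose reads can be confused. The outer pair, Ifit1 and Ifit2, was also lower in every IL-17 library, without a call. Ifit1 and Ifit1bl2, a relative on the opposite strand, start 127 bases apart, so that the Ifit1 stretch shown above lies before both genes' starts. Ifit1bl2 was at 1.33, 0.946 and 1.19 FPKM in controls and 0.724, 0.784 and 1.08 with IL-17, with overlapping groups (log2 fold change -0.21, SE 0.10, limma adjusted p = 0.354). Nmi, the partner of Ifi35, was at 10.5, 9.67 and 9.35 FPKM in controls and 6.66, 8.87 and 8.41 with IL-17 (log2 fold change -0.28, SE 0.10, limma adjusted p = 0.228). Of 7 listed relatives (Ifit1bl1, Ifit1bl2, Ifitm5, Ifitm6, Ifitm7, Ifitm10 and Nmi) 4 were tested and none was called, with a median log2 fold change of -0.06. Ifit1bl1 and Ifitm5 were under the filter, and Ifitm7 was not analysed here.

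**Figure D4:**
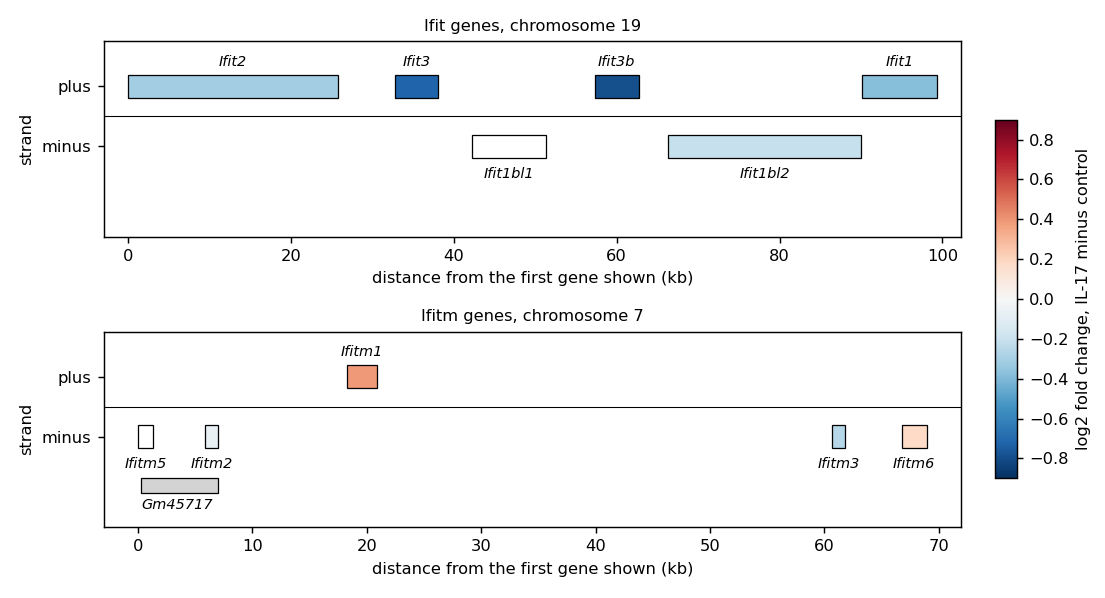
Positions of the Ifit genes (upper panel) and Ifitm genes (lower panel) by strand, as distance in kb from the first gene shown, coloured by log2 fold change (IL-17 minus control); unfilled boxes (Ifit1bl1, Ifitm5) were not tested and Gm45717 is in grey. Ifit3 and Ifit3b are the darkest blue, at -0.72 and -0.79.

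The pathway above these genes was given by a list of 18 genes, 17 of them tested; 4 fell, none rose and 13 were not called, where 0.996% of all genes fell. The median log2 fold change was -0.10. Among 9 genes of the receptors and of ISGF3, 1 fell. It was Stat2, the gene of an ISGF3 subunit, at 19.6, 21.6 and 21.6 FPKM in controls and 14.7, 12.9 and 13.4 FPKM with IL-17 (log2 fold change -0.58, SE 0.07, limma adjusted p = 0.00651). Irf9, the gene of the DNA-binding subunit, stood at 21.1, 19.7 and 20.5 FPKM in controls and 15.7, 16.6 and 18.4 FPKM with IL-17 (-0.26, limma adjusted p = 0.111). Tyk2, the receptor kinase gene, stood higher, at 6.69, 7.64 and 7.52 FPKM in controls and 10.3, 9.95 and 8.86 with IL-17 (0.37, limma adjusted p = 0.0605). Neither was called, and neither was any of the interferon receptor chains.

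Of 8 tested interferon regulators 3 fell. Usp18, which removes ISG15 and restrains the receptor, fell from 102 ± 6.74 to 69.9 ± 3.51 FPKM (log2 fold change -0.54, SE 0.07, limma adjusted p = 0.00758). Irf7, the factor that drives interferon genes, fell by 0.74 on the log2 scale (limma adjusted p = 0.000325), and Irf1, an early interferon-response factor, by 0.34 (limma adjusted p = 0.0298). Irf3, the factor that starts interferon transcription, had a mean of 18.1 ± 0.780 FPKM in controls and 16.3 ± 0.647 with IL-17, and Ptpn2, a tyrosine phosphatase, one of 4.83 ± 0.134 and 5.61 ± 0.607; neither was called. Ifnb1, the interferon beta gene, was under the filter, at 0.677, 0.398 and 0.257 FPKM in controls and 0.158, 0.483 and 0.296 with IL-17, with overlapping groups. With IL-17 library 1 and control library 3 both left out, 2 of the 17 were called lower. As said above, the groups of that run stay apart in the lung and liver sums.

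**Figure D5:**
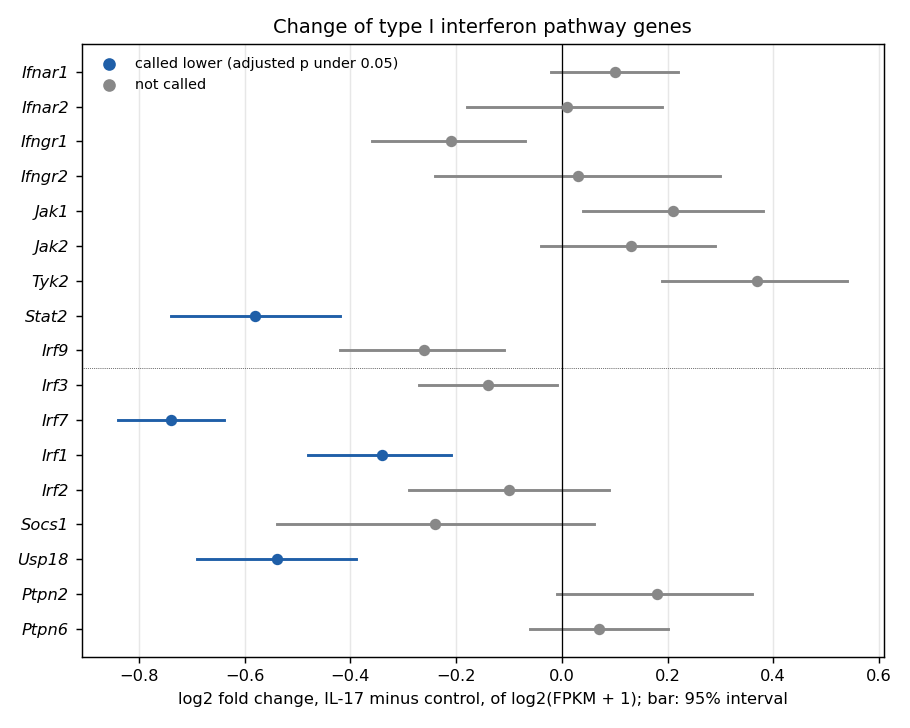
Log2 fold change (IL-17 minus control, of log2(FPKM + 1)) with its 95% interval for the 17 tested genes of the interferon pathway list; receptors and ISGF3 above the dotted line, interferon regulators below. Blue marks the 4 genes called lower, Stat2, Irf7, Irf1 and Usp18.

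The profile most like the mean of the 10 genes was sought among 9342 other genes with a mean of at least 2 FPKM, by Euclidean distance between centred log2(FPKM + 1) values over the 6 libraries. The mean profile was -0.23, -0.22 and -0.14 in IL-17 libraries 1 to 3 and 0.19, 0.17 and 0.22 in controls. The closest were Zfp511 (distance 0.0785), Il1rl1 (0.0908), Ccnd1 (0.0920), Rtp4 (0.0926) and ENSMUSG00000118607 (0.0954), where the median distance was 0.533. Zfp511, a zinc finger gene, stood at 10.8, 10.6 and 11.0 FPKM in controls and 7.82, 8.41 and 8.73 FPKM with IL-17. Il1rl1 encodes the receptor of IL-33, Ccnd1 cyclin D1, and Rtp4 a receptor transport protein that is itself induced by interferon. Rtp4 stood at 47.5, 45.6 and 46.1 FPKM in controls and 33.9, 36.0 and 35.4 FPKM with IL-17. Distances are a description of 6 libraries in 2 groups.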

How the data were processed

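The authors deposited 1 table of FPKM values with 1 column per library. The submitters' processing notes name fastp, StringTie, edgeR and mm10 but no versions. The aligner, annotation release and strand setting are not given in the sources used here, which leaves overlapping and near-identical genes uncertain. GENCODE vM21 (GRCm38) gave symbols and coordinates: 26525 identifiers matched and 70 did not. Promoter sequences came from RefSeq (GRCm38.p6); all 10 genes matched.

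FPKM hold no counts. For 10445 genes with 1 transcript, the fullest bin (5e-04 wide) of FPKM times length in kilobases, if it marks 1 fragment, gives 15700000 to 17500000 mapped fragments per library. Sums of FPKM ran from 365534 to 383093.

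Values were analysed as log2(FPKM + 1), which understates changes of low genes. Genes with a mean of at least 0.5 FPKM (12953; 13642 left out) were fitted by group in limma 3.58.1 (R 4.3.3, mean-variance trend), with p-values adjusted by Benjamini-Hochberg; intervals are at the 95% level. The procedure was tested on simulated data. Paralog ratios were tested with scipy 1.17.1. TMM factors were computed unweighted on the FPKM. Alternatives changed the pseudocount, filter, scaling and variance model, blocked by replicate number or dropped libraries; leaving out IL-17 library 1 with control library 3 and summing Ifitm2 with Gm45717 were added after the data were seen.

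The genes, the lists and the tests were chosen with earlier results of these data known. The pathway list leaves out 1 gene that is not reported here. Named genes are the 10, any model that overlaps them, up to 4 called and 2 uncalled genes of smallest p in each list, the 5 nearest profiles and the cell type markers. Ifnb1, Ifitm5, Ptprc, Csf1r, the other Ifi genes and the relatives outside this rule were added after their values were seen.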

Additional observations from a re-analysis of the deposited data

How the results depend on the processing

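Of the 10 genes, 5 were called lower in the reported analysis; 3 were called with no filter on low values (Ifit3b, Ifi44 and Ifi44l) and 3 with the replicate number as a block (replicate block; Ifit3b, Ifi35 and Ifi44l). Deviations from the group mean in same-numbered libraries had r = -0.144, 0.0801 and 0.206 across genes for numbers 1, 2 and 3. Differently numbered pairs ran from -0.312 to 0.253. With 3 libraries per group these values cannot decide whether the number marks a pairing. The number was not used as one in the reported analysis, as nothing says that it marks shared cultures. The log2 fold change of Ifitm2 reversed to 0.14 without control library 3, 0.13 without IL-17 library 1 and control library 3, and 0.20 when summed with Gm45717; with 1 library left out it ran from -0.20 to 0.14. Those of the other 9 genes kept their sign under every alternative run. Over all genes, 129 lower and 123 higher became 72 and 63 with no filter, 518 and 497 with array weights, 39 and 41 with the replicate block, and 92 and 68 without IL-17 library 1 and control library 3. Leaving out 1 library gave 60 to 142 lower and 57 to 109 higher. Pathway genes called lower were 4, but 1 with the replicate block and 2 without IL-17 library 1 and control library 3; 1 was called higher with array weights, where none was in the reported analysis. Running without the filter changes both the genes in the variance fit and how many genes are adjusted over. The cause of the changed counts was not tested. Few fragments limit Ifitm1 and Ifi44l.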

Other observations

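Of 17 other genes named Ifi followed by a number in the table, chosen after the data were seen, 11 were tested; 1 fell, where 0.996% of all genes fell, none rose and 10 were not called. Their log2 fold changes were negative for 8 of the 11, with a median of -0.04 against 0.02 for all genes tested. Groups did not overlap for 4 of the 11, all lower with IL-17, where 10.9% of all genes were lower without overlap. Whether these genes differ from the 10 was not tested. The one that fell was Ifi47, an interferon-inducible GTPase, from 7.26, 6.69 and 5.97 FPKM in controls to 3.64, 3.55 and 4.05 with IL-17 (log2 fold change -0.68, SE 0.08, limma adjusted p = 0.00676). Ifi27l2a, at 427, 352 and 372 FPKM in controls and 293, 312 and 345 with IL-17, did not overlap between groups but was not called (limma adjusted p = 0.189). Ifi27, at 87.5, 71.1 and 75.7 FPKM in controls, stood at 86.7, 97.5 and 101 with IL-17 (limma adjusted p = 0.182). Ifi205, at 2.09, 1.80 and 1.68 FPKM in controls and 1.53, 1.17 and 1.48 with IL-17, and Ifi207, at 3.92, 4.46 and 4.23 in controls and 3.78, 3.63 and 3.36 with IL-17, were lower without overlap and not called (limma adjusted p = 0.217 and 0.242).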
